A study of Mus musculus with 12 samples.

Results

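Immediate early genes are a class of genes that cells transcribe within minutes of a stimulus, from transcription factors already present, and the 10 genes described here are 8 of that class, Fos, Fosb, Jun, Junb, Egr1, Atf3, Ier2 and Dusp1, with the heat shock genes Hspa1a and Hspa1b. They were taken by gene name from the deposited expression table, which listed all 10 among its 34347 genes, and all 10 passed the filter on low counts that left 22110 genes over the 12 libraries. The study collected dental epithelium and dental mesenchyme from mouse embryos to compare the tissues of the early tooth before and after odontogenic potential passes from epithelium to mesenchyme. These 10 genes are described library by library, since such genes can answer to the handling of a tissue as well as to signals in the embryo.

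The proteins of the Fos and Jun families pair with each other into the transcription factor AP-1, and growth factors, serum, stretch, wounding and stress can raise their transcripts through MAP kinases and factors such as SRF, Elk proteins and CREB. The transcripts are short-lived, so that a rise is brief, and Dusp1 and similar phosphatases switch the kinases off again. Hspa1a and Hspa1b encode the inducible chaperone HSP70 and are the classic targets of heat shock factor. In developing epithelia, AP-1 and Egr1 also act downstream of growth factor signals such as FGF.

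Each of the 4 groups held 3 libraries of wild-type C57BL/6 embryos. The groups were dental epithelium at E11.5, dental mesenchyme at E11.5, dental epithelium at E13.5 and dental mesenchyme at E13.5. According to the methods of the study, the dissected piece was the mandible at the earlier stage and the tooth germ at the later one, incisors and molars were taken, and dispase at body temperature parted the tissues before they were put on ice. A difference between the stages therefore cannot be told apart from the difference in the dissected piece. The labels speak of pooled RNA, and the methods name biological replicates from a total of embryos without saying how these were divided among the libraries, so that p-values measure the spread between these libraries. In bulk tissue, fewer cells that express a gene and less RNA per cell cannot be told apart.

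The libraries held 70134554 to 79349382 estimated counts each. These totals exceed the valid reads that the quality table of the study lists for each library, so an estimated count is not 1 read, and the tests took the counts on this scale. In each group, the title of 1 library carries a code without a number, and it is called the unnumbered library here. At both stages it was replicate 3 in epithelium and replicate 1 in mesenchyme. What the number stands for is not given. Nor is it given whether the 2 numbered libraries of a group came from separate embryos. P-values of fits on the numbered libraries alone therefore measure only the spread between those libraries. Over genes of at least 1000 counts, the 2 numbered libraries of a group differed by a median of 3.99 to 7.43%, and pairs that held the unnumbered library by 10.5 to 19.9%. The summed level of 20 epithelial markers, none at 0 in any library, was 364.4 to 410.8 FPKM in E11.5 epithelium against 37.6 to 43.9 in E11.5 mesenchyme. At E13.5 it was 792.8 to 3886 against 105.0 to 149.6 FPKM, so the labelled tissues kept their order. Within E13.5 epithelium, the unnumbered library was the lowest in this sum and the highest, at 1557 FPKM against 432.5 and 648.9, in the sum of 20 mesenchyme markers.

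The sequences just upstream of these genes were searched for short elements known from the promoters of such genes. The windows cover the 250 bases before the annotated start, from RefSeq on GRCm38.p6, and those of 8 of the 10 genes were searched on both strands, leaving out Egr1 and Ier2. The 3 windows below are shown because they hold TGACG, the core of the cyclic AMP response element that CREB and ATF factors bind, printed in capitals. They belong to Fos (chr12:85473640-85473889, plus strand), Fosb (chr7:19310046-19310295, minus strand) and Dusp1 (chr17:26508473-26508722, minus strand).
Fos: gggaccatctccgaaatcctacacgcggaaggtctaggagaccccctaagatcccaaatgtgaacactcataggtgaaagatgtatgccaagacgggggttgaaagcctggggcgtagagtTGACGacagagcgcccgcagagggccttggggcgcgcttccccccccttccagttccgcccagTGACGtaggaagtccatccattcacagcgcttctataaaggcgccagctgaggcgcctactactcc
Fosb: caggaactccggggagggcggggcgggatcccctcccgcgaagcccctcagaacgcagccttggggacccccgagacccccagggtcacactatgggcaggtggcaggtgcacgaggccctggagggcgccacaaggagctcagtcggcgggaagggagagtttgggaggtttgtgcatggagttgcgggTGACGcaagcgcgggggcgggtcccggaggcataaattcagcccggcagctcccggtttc
Dusp1: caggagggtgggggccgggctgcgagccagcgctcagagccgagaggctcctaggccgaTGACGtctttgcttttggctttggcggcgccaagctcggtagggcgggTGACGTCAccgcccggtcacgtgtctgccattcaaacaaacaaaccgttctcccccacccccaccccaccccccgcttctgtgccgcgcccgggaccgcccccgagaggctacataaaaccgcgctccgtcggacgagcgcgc

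TGACG was in the windows of 5 of the 8 genes, Fos, Fosb, Junb, Atf3 and Dusp1, and in 17.8% of all 32851 windows of this length. In Fos it lay 129 to 125 and 66 to 62 bases before the start, and in Fosb 60 to 56 bases before it. The whole palindrome TGACGTCA, in which TGACG occurs on both strands, was 143 to 136 bases before the start of Dusp1 and in 1.55% of all windows. TGANTCA, the site of AP-1 itself, was in 0 of the 8 windows and in 6.75% of all, and the CArG box that SRF binds in 0 of the 8 and in 1.47% of all. A match is a string of letters and does not show binding. A count of 0 does not show that a gene lacks such a site. Bases farther from the start, variants of these strings, and Egr1 and Ier2 were not searched.

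The heat shock windows are shown because the unit of the heat shock element, GAANNTTC, sits at the same place in both, printed in capitals, and because the windows are nearly identical. They belong to Hspa1a (chr17:34972157-34972406, minus strand) and Hspa1b (chr17:34959239-34959488, minus strand).
Hspa1a: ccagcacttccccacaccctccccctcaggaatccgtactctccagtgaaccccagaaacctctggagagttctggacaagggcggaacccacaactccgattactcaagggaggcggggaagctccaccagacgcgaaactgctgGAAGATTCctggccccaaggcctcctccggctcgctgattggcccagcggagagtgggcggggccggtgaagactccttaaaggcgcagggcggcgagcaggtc
Hspa1b: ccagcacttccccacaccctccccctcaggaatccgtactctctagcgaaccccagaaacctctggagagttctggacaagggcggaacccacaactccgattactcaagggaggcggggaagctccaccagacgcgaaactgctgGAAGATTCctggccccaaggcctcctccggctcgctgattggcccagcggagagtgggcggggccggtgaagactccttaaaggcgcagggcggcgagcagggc

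The Hspa1a and Hspa1b windows were the same at 247 of 250 positions, or 98.8%. GAANNTTC lay 104 to 97 bases before both starts, and it was also in the window of Jun and in 6.69% of all windows. The transcripts are alike too. Of the stretches of 150 bases in the Hspa1a transcript, 38.1% occur in that of Hspa1b, and of those in the Hspa1b transcript, 40.5% occur in that of Hspa1a. How reads were divided between these genes is therefore uncertain, and their sum is given beside each of them.

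At E11.5 the immediate early genes ranged from 0.974 FPKM for Atf3 to 81.4 FPKM for Ier2. Levels are given as FPKM, fragments scaled to transcript length and to the mapped fragments of the library, in the order of replicates 1, 2 and 3. Ier2, which encodes a nuclear regulator of transcription, was the highest of the 10 genes in all 6 E11.5 libraries, with 81.4, 80.6 and 56.0 FPKM in epithelium and 44.9, 53.9 and 63.3 FPKM in mesenchyme. The groups overlapped for this gene. Hspa1a was the lowest in all 6, with 1.11, 0.983 and 0.494 FPKM in epithelium and 0.352, 0.730 and 0.569 FPKM in mesenchyme. Between these, Jun, Egr1 and Fos followed Ier2 in every E11.5 library, in that order in all but epithelium replicates 2 and 3. The sum of the 10 genes was 233.1 to 242.4 FPKM in E11.5 epithelium and 129.5 to 164.7 FPKM in E11.5 mesenchyme.

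At E13.5, 1 library in each tissue stood far above the other 2 for the immediate early genes, and it was the unnumbered one. The sum of the 10 genes was 112.5, 106.6 and 812.7 FPKM in E13.5 epithelium and 416.5, 115.2 and 119.0 FPKM in E13.5 mesenchyme. In these unnumbered libraries Fos led the 10 genes, whereas Ier2 or Jun led them in the other 4 libraries of the stage. The members of AP-1 (Fos, Fosb, Jun and Junb) summed to 487.2 FPKM in E13.5 epithelium replicate 3 and 249.3 FPKM in E13.5 mesenchyme replicate 1, against 44.9 to 67.1 FPKM in the other 4.

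Fos, the founding member of the Fos family, had 39.5, 38.8 and 43.3 FPKM in E11.5 epithelium and 15.5, 18.8 and 22.2 FPKM in E11.5 mesenchyme. At E13.5 it had 17.7, 13.49 and 226.8 FPKM in epithelium and 110.1, 19.7 and 19.2 FPKM in mesenchyme. The unnumbered library was 14.5-fold above the mean of the other 2 in epithelium and 5.66-fold above it in mesenchyme, while the numbered libraries of the tissues lay close together. At E11.5 the same ratio was 1.10 in epithelium and 0.758 in mesenchyme.

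Fosb, a second Fos family protein, showed the widest range. It had 6.61, 6.56 and 11.8 FPKM in E11.5 epithelium and 2.80, 4.26 and 4.597 FPKM in E11.5 mesenchyme. At the later stage it had 3.74, 1.48 and 73.3 FPKM in epithelium and 33.3, 3.0 and 3.46 FPKM in mesenchyme. The E13.5 unnumbered library was thus 28.1-fold above the mean of the other 2 in epithelium and 10.3-fold above it in mesenchyme, the widest ratios of the 10 genes in both tissues. The numbered libraries of E13.5 epithelium also differed from each other more for Fosb than for the other 9 genes, by 86.7% of their mean.

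Jun, the partner of Fos in AP-1, had 45.5, 42.1 and 42.6 FPKM in E11.5 epithelium and 28.4, 31.2 and 32.9 FPKM in E11.5 mesenchyme. Its levels at E13.5 were 25.5, 19.7 and 128.7 FPKM in epithelium and 81.4, 37.2 and 35.3 FPKM in mesenchyme. With 5.69-fold and 2.24-fold, the E13.5 unnumbered libraries stood out less for Jun than for Fos. The ratio of Fos to Jun, below 1 in 9 of the 10 other libraries, was 1.76 in E13.5 epithelium replicate 3 and 1.35 in E13.5 mesenchyme replicate 1.

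Junb, a Jun family protein that can restrain Jun, had 13.01, 14.6 and 15.6 FPKM in E11.5 epithelium and 6.45, 6.74 and 6.75 FPKM in E11.5 mesenchyme. The tissues did not overlap and each was tight. At E13.5 Junb had 8.32, 10.2 and 58.4 FPKM in epithelium and 24.5, 7.22 and 7.65 FPKM in mesenchyme. The unnumbered libraries were 6.29-fold and 3.29-fold above the mean of the others.

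Egr1, a zinc finger factor and a standard read-out of MAP kinase activity, had 42.3, 43.6 and 48.5 FPKM in E11.5 epithelium and 20.9, 21.4 and 22.8 FPKM in E11.5 mesenchyme. At E13.5 it had 14.4, 14.1 and 167.4 FPKM in epithelium and 77.4, 12.9 and 15.5 FPKM in mesenchyme. The numbered libraries of both E13.5 tissues were alike, at means of 14.3 and 14.2 FPKM, and the unnumbered ones were 11.7-fold and 5.46-fold above them.

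Atf3, a stress-induced ATF family factor, differed from the other 7 immediate early genes. It had 1.55, 2.22 and 3.77 FPKM in E11.5 epithelium and 2.13, 1.26 and 0.974 FPKM in E11.5 mesenchyme, so that the unnumbered library was the highest of its group at E11.5 as well, at 2.00 and 1.91 times the mean of the others. At the later stage it had 5.00, 5.35 and 26.0 FPKM in epithelium and 11.8, 1.83 and 1.79 FPKM in mesenchyme. It was the only one of the 10 genes besides Hspa1a and Hspa1b whose ratio at E13.5 was not wider in epithelium, where it was 5.02, than in mesenchyme, where it was 6.54.

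Ier2 was lowest in the unnumbered library of both tissues at E11.5. Its E11.5 unnumbered libraries, given above, were 0.692 and 0.766 of the mean of the other 2. Its levels at E13.5 were 22.4, 22.9 and 95.0 FPKM in epithelium and 56.0, 21.0 and 23.3 FPKM in mesenchyme, 4.19-fold and 2.53-fold in the unnumbered libraries. Even so, its level in E13.5 mesenchyme replicate 1 was the same as in E11.5 epithelium replicate 3, both at 56.0 FPKM.

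Dusp1, the phosphatase that switches off MAP kinases, had 9.42, 9.08 and 10.1 FPKM in E11.5 epithelium and 7.17, 7.45 and 9.01 FPKM in E11.5 mesenchyme. At E13.5 it had 6.26, 5.26 and 27.1 FPKM in epithelium and 15.5, 7.52 and 8.30 FPKM in mesenchyme, with ratios of 4.70 and 1.96 for the unnumbered library. The ratio in mesenchyme was the smallest of the 8 genes there.

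Hspa1a and Hspa1b did not share this pattern. Hspa1a had 2.94, 4.02 and 3.35 FPKM in E13.5 epithelium and 2.999, 1.93 and 1.89 FPKM in E13.5 mesenchyme. Its unnumbered library was inside the range of the other 2 in epithelium, with a ratio of 0.963, and above them by 1.57-fold in mesenchyme. Hspa1b had 2.05, 1.95 and 0.933 FPKM in E11.5 epithelium and 0.898, 1.37 and 1.58 FPKM in E11.5 mesenchyme. At the later stage it had 6.15, 10.03 and 6.74 FPKM in epithelium and 3.52, 2.85 and 2.64 FPKM in mesenchyme. The unnumbered library was the lowest of its group for both genes in both tissues at E11.5, at 0.467 to 0.609 of the mean of the others. Their sum was 1.25 to 3.16 FPKM at E11.5, 9.09 to 14.05 FPKM in E13.5 epithelium and 4.53 to 6.52 FPKM in E13.5 mesenchyme, with no overlap between the stages. The sum also shifts with the division of reads, since FPKM is scaled to transcript length, 2967 bases for Hspa1a and 2803 for Hspa1b.

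**Figure D1:**
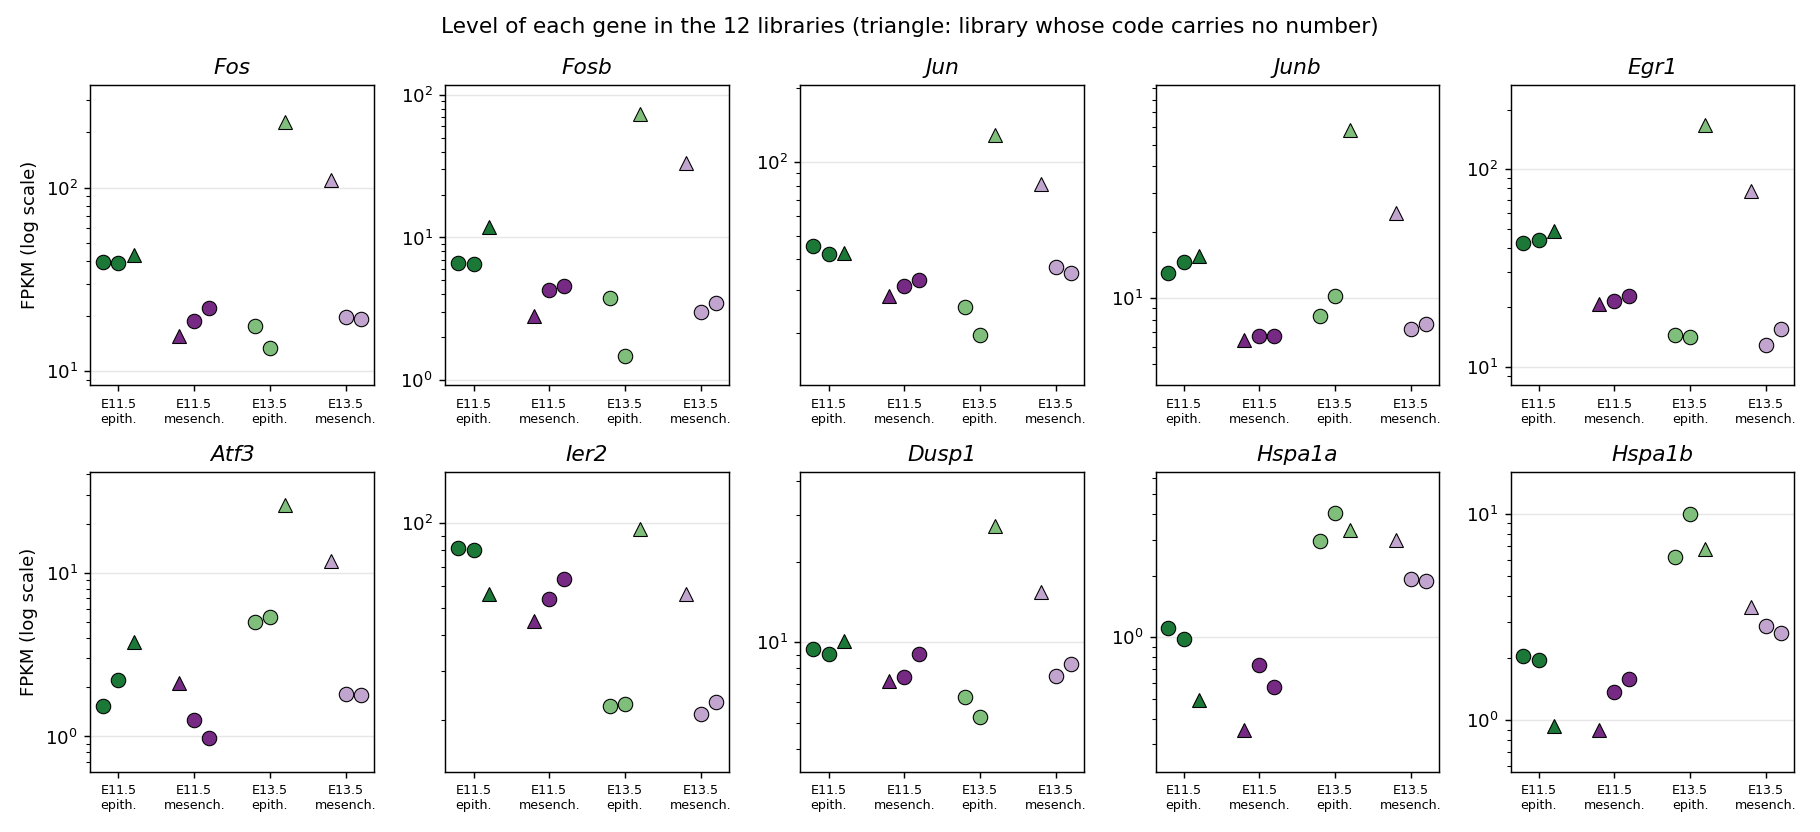
Level of each of the 10 genes in the 12 libraries, as FPKM on a log axis, by group. Each point is 1 library, with replicates 1, 2 and 3 from left to right, and triangles mark the unnumbered library of each group. For the 8 immediate early genes the E13.5 triangles sit above all circles of their group, with Fos at 226.8 and 110.1 FPKM against 13.49 to 19.7. For Hspa1a and Hspa1b, all E13.5 points lie above all E11.5 points of the same gene.

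To place these ratios among all genes, those at least 2-fold above both numbered libraries in both tissues were counted, on the scale of log2(FPKM + 0.5). At E13.5 this held for 7 of the 10 genes (all but Dusp1, Hspa1a and Hspa1b) and for 25 of 22110 genes, or 0.113%. Dusp1 lay just outside, at 1.82-fold above the higher numbered library in mesenchyme, and Jun and Ier2 just inside, at 2.17-fold and 2.38-fold there. The other direction was rarer, with 0 of the 10 genes and 3 genes in all (0.0136%) at least 2-fold below. At E11.5 it held for 0 of the 10 genes in either direction, against 5 genes (0.0226%) above and 29 (0.131%) below. The median difference of the 10 genes was 2.36 in epithelium and 1.49 in mesenchyme at E13.5, with -0.02 over all genes in both tissues, and 0.13 and -0.28 at E11.5, with -0.02 and -0.06 over all genes. This count was made after the ratios of the 10 genes had been seen and carries no test.

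**Figure D2:**
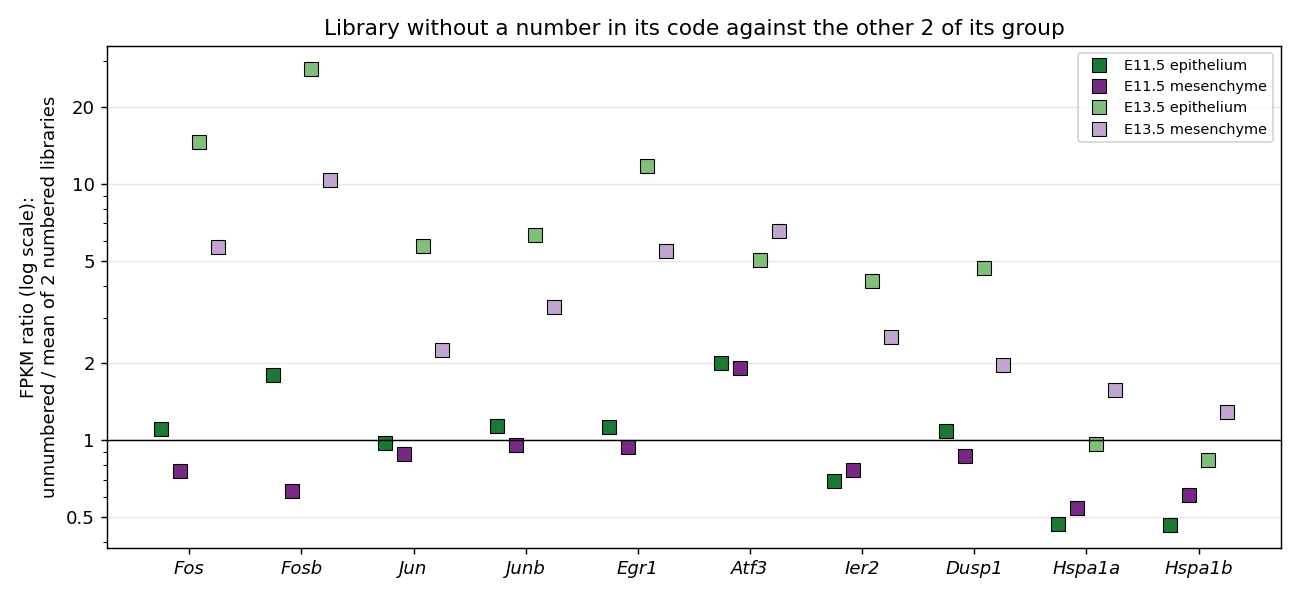
Ratio of the unnumbered library to the mean of the 2 numbered libraries of its group, as FPKM on a log axis, for each gene and group. At E11.5 the ratios lie between 0.467 and 2.00, and at E13.5 those of the 8 immediate early genes lie between 1.96 and 28.1.

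Of the other 18 genes among the 25, 8 belonged to a list of 44 further immediate early genes, of which 42 were tested. They were the nuclear receptors Nr4a1 and Nr4a3, the zinc finger factor Egr2, the RNA decay factor Zfp36, the antiproliferative gene Btg2, the matricellular gene Ccn1, the cytokine signalling inhibitor Socs3 and the NF-kappaB regulator Nfkbiz. Nr4a1 had 3.02, 2.14 and 77.4 FPKM in E13.5 epithelium and 47.8, 7.75 and 7.53 FPKM in E13.5 mesenchyme. Ccn1 had 8.09, 7.58 and 141.3 FPKM in E13.5 epithelium and 126.7, 25.7 and 21.5 FPKM in E13.5 mesenchyme. These 8 genes were picked by that criterion, so their high levels in the E13.5 unnumbered libraries follow from it. Over all 42 tested, the median difference at E13.5 on the log2 scale was 1.01 in epithelium and 0.29 in mesenchyme. Dusp5, a nuclear phosphatase of MAP kinases, was the sole member of 17 tested phosphatases and feedback inhibitors in the 25, with 0.307, 0.244 and 7.98 FPKM in E13.5 epithelium and 4.95, 0.783 and 0.904 FPKM in E13.5 mesenchyme. The remaining 9 were Irf1, Ccl4, Tnfaip3, Apold1, mt-Tw, Dppa5a, Gm50450, Gm28037 and Gm2395, of which Irf1 encodes an interferon-response factor and Tnfaip3 and Ccl4 are known targets of NF-kappaB. These 9 belong to no list and are named because they complete the count.

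Of 14 tested further AP-1 and ATF genes, 0 were at least 2-fold above in both tissues, with medians of 0.06 in epithelium and 0.16 in mesenchyme. Jund, a Jun family member that is expressed more steadily than Jun, had 59.8, 57.9 and 182.8 FPKM in E13.5 epithelium and 112.5, 96.2 and 96.9 FPKM in E13.5 mesenchyme, so that the E13.5 unnumbered library stood out for it in epithelium and hardly in mesenchyme. Of 39 further heat shock and cochaperone genes, 0 met the criterion, with medians of 0.01 and -0.11. Dnajb1, the HSP40 partner of HSP70 and itself a target of heat shock factor, had 24.2, 25.9 and 25.7 FPKM in E13.5 epithelium and 17.0, 18.4 and 18.5 FPKM in E13.5 mesenchyme. It was flat across both groups. Counts were also 0 of 19 upstream regulators, with medians of 0.12 and 0.03, and 0 of 20 genes of endoplasmic reticulum and integrated stress, with medians of 0.22 and -0.06. Jund and Dnajb1 were chosen after their values were seen.

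**Figure D3:**
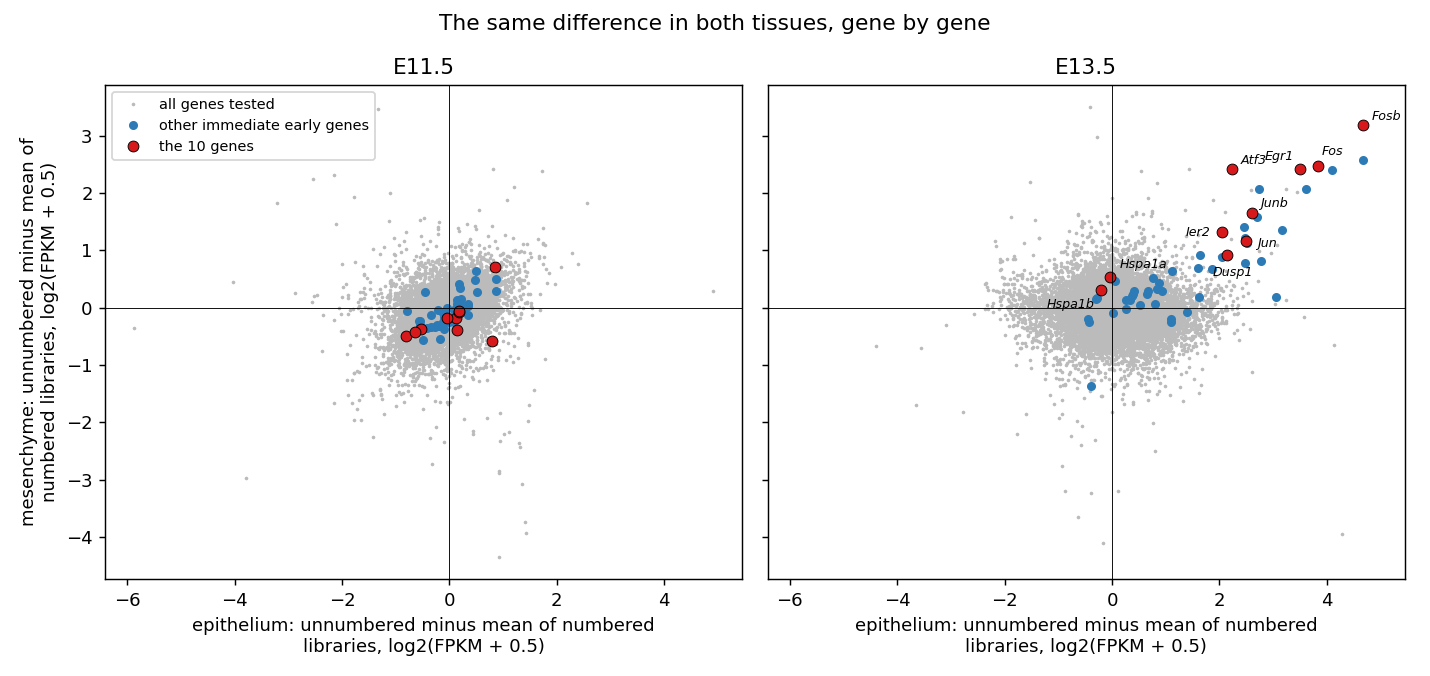
Difference between the unnumbered library and the mean of the numbered libraries, as log2(FPKM + 0.5), in epithelium (x axis) and mesenchyme (y axis) at E11.5 and E13.5. Each point is 1 of 22110 genes, with further immediate early genes in blue and the 10 genes in red. At E13.5 the red points except Hspa1a and Hspa1b reach toward the upper right, to 4.67 and 3.18 for Fosb, and at E11.5 they stay in the cloud.

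Other measures moved with the E13.5 unnumbered libraries, and their part in these results was not tested. The sums of cell type markers did not move in the same way in both tissues. In epithelium, the summed epithelial markers were 792.8 FPKM in replicate 3 against 2672 and 3886 in the others, the 20 mesenchyme markers 1557 against 648.9 and 432.5, the 10 endothelial markers 81.0 against 33.5 and 16.4, and the 10 macrophage and leukocyte markers 39.5 against 34.6 and 21.8. Neuron markers were 74.7 against 51.6 and 23.2 and skeletal muscle markers 311.9 against 169.7 and 162.8, while erythroid markers were 3088 against 3121 and 1638. All these sums except the epithelial and the erythroid one were highest in the unnumbered library of E13.5 epithelium. In mesenchyme, the mesenchyme markers were 1924 FPKM in replicate 1 against 2345 and 2260 in the others, the endothelial markers 100.5 against 113.1 and 117.2, and the macrophage and leukocyte markers 29.8 against 64.8 and 80.9, so that those sums were lower there, while the epithelial markers were 149.6 against 105.0 and 111.3. All 8 immediate early genes were higher in E13.5 epithelium replicate 3 than in any of the 6 mesenchyme libraries, with Fos at 226.8 FPKM against at most 110.1 and Dusp1 at 27.1 against at most 15.5. Bulk levels do not give the cells these transcripts came from, and the part of other cells was not tested.

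At E11.5, the unnumbered libraries were lower in erythroid markers, with 2516 FPKM against 5942 and 6089 in epithelium and 4589 against 9343 and 9886 in mesenchyme, and in skeletal muscle markers, with 42.3 against 112.2 and 113.6 in epithelium and 26.5 against 69.2 and 76.1 in mesenchyme. Neuron markers were lower in the epithelial one alone, at 80.5 FPKM against 245.5 and 242.0, and 13 mitochondrially encoded genes were slightly higher in both, by medians of 0.19 and 0.13 on the log2 scale. Summed mesenchyme markers were also lowest in both, at 460.4 FPKM against 626.4 and 610.3 in epithelium and 662.7 against 807.4 and 870.0 in mesenchyme. The same held for macrophage and leukocyte markers, at 23.4 against 28.6 and 30.8 and 11.7 against 19.8 and 19.6, and for epithelial markers. Endothelial markers were highest in the epithelial one and lowest in the mesenchymal one. Hspa1a, Hspa1b and Ier2 were lower in the unnumbered libraries of both tissues, and Atf3 was higher. Whether these markers have a part in that was not tested.

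As the SD of log2(FPKM + 0.5) over 3 libraries, the median of the 10 genes was 0.217 for epithelium and 0.248 for mesenchyme of E11.5, against 0.154 and 0.125 over all 22110 genes. At E13.5 it was 1.37 in epithelium and 0.861 in mesenchyme, with 0.179 and 0.144 over all genes. All 10 genes had an SD above the median gene in both E13.5 groups, against 5 and 7 in the E11.5 groups. By this SD, Fos stood at percentile 82.1 of all genes in E11.5 mesenchyme and at percentile 99.9 in E13.5 mesenchyme. Over the numbered libraries alone the medians were 0.0376, 0.128, 0.231 and 0.0605 in the order of the groups above, against 0.0563, 0.0714, 0.0927 and 0.0823 over all genes. On log2 CPM the order turned at E11.5, with 0.219 against 0.285 over all genes in epithelium and 0.196 against 0.217 in mesenchyme, as it did in E11.5 epithelium with a pseudocount of 0.1, with 0.220 against 0.235.

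Epithelium was compared with mesenchyme at E11.5 to ask which of the 10 genes differ between the tissues while the epithelium holds the odontogenic potential. Fos, Fosb, Jun, Junb and Egr1, the AP-1 genes and Egr1, were higher in epithelium, by 1.46-fold for Jun and 2.14-fold to 2.25-fold for the rest. Junb was 14.4 ± 1.33 FPKM (SD, n = 3) in epithelium and 6.65 ± 0.171 FPKM in mesenchyme. With edgeR's quasi-likelihood test over all genes and Benjamini-Hochberg adjustment, these 5 of 10 genes passed at an adjusted p under 0.05 and 0 were lower, where 4.75% of 20063 genes tested were higher, 1.63% were lower and 6.38% passed. The log2 fold change was 1.17 for Fos (SE 0.11, adjusted p = 0.00104), 1.17 for Junb (SE 0.12, adjusted p = 0.00115), 1.10 for Egr1 (SE 0.09, adjusted p = 0.00041), 0.55 for Jun (SE 0.08, adjusted p = 0.00556) and 1.16 for Fosb (SE 0.26, adjusted p = 0.042). Dusp1, Ier2, Atf3, Hspa1a and Hspa1b had log2 fold changes of 0.33, 0.48, 0.81, 0.70 and 0.42 and did not pass. For 6 genes, the 5 that passed and Dusp1, the lowest epithelial library was above the highest mesenchymal one. Over all genes, the groups did not overlap, in either direction, for 25.3%. The direction was the same in the unnumbered pair of libraries, where all 10 ratios were above 1, as in the means of the numbered libraries. In a fit on the numbered libraries alone all 10 were higher, where 17.5% of genes were higher, 15.3% lower and 32.9% passed. The Fosb call was lost without any 1 of the 6 libraries except epithelium replicate 3, at adjusted p = 0.0551 to 0.131, and the other 4 calls were kept in each of the 6 cases. With the spread estimated over all 12 libraries, 0 of the 10 genes passed with edgeR and 0 had an unadjusted p under 0.05. Of the markers of other cells, 5 of 12 neuron genes and 3 of 10 macrophage and leukocyte genes were also higher in E11.5 epithelium and 5 of 10 endothelial genes lower, and their part in these differences was not tested.

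The counts of the related lists at E11.5 stand against 4.75% of all genes higher and 1.63% lower. Of 42 further immediate early genes tested, 6 were higher in epithelium and 1 was lower, among them Errfi1, a feedback inhibitor of the EGF receptor, at 0.95 (adjusted p = 0.00176), Egr2 at 2.05 (adjusted p = 0.00186), Btg2 at 0.96 (adjusted p = 0.00318) and Zfp36 at 0.72 (adjusted p = 0.00525). Of 17 phosphatases and feedback inhibitors, 2 were higher and 2 lower, with Spry2 at 0.56 (adjusted p = 0.0174) and Dusp6 at -0.45 (adjusted p = 0.0208), both known feedback genes of FGF signalling. Of 38 heat shock genes 3 were higher, the small heat shock proteins Hspb8 at 2.99 (adjusted p = 0.000197) and Hspb1 at 2.37 (adjusted p = 0.00157), and Hspa2 at 1.01 (adjusted p = 0.047). Of 20 stress genes Sesn2 was higher at 0.82 and Asns lower at -0.54. Of 19 upstream regulators 0 passed with edgeR, the one tool run on these lists, and 2 had an unadjusted p under 0.05.

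At E13.5, when the mesenchyme holds the potential, Hspa1b alone of the 10 genes passed between the tissues. It was 7.64 ± 2.09 FPKM (SD, n = 3) in epithelium and 3.004 ± 0.460 FPKM in mesenchyme, and the log2 fold change was 1.36 (SE 0.24, adjusted p = 0.0469), where 1.62% of 20584 genes tested were higher and 1.83% passed. Hspa1a had 0.61 (SE 0.26, adjusted p = 0.208). The division of reads between Hspa1a and Hspa1b is uncertain, and their sum was not tested. The log2 fold changes of the 8 immediate early genes were 0.20 to 1.25 with SEs of 0.65 to 1.51, and 0 of them passed, which does not show equal levels. The SE of Fos was 1.19 here and 0.11 at E11.5. In a fit on the numbered libraries alone, where 35.7% of genes passed, Atf3 (1.53), Hspa1a (0.89) and Hspa1b (1.58) were higher and Jun (-0.67) and Dusp1 (-0.44) lower in epithelium. In the numbered libraries the mean of Fos was 0.803 times as high in epithelium as in mesenchyme, and in the unnumbered libraries 2.06 times. The groups did not overlap for 1 gene, Hspa1b, and for 29.4% of all genes. The Hspa1b call was lost without any 1 library except epithelium replicate 3, at adjusted p = 0.0854 to 0.218, and with limma at adjusted p = 0.0524 to 0.0668, and it was kept with DESeq2 at adjusted p = 1.66e-05. Of the related lists, Hspb8 was higher in epithelium at 2.78 (adjusted p = 0.0347) and the stress gene Nupr1 lower at -1.89 (adjusted p = 0.0496). With edgeR, the one tool run on these lists, 0 further immediate early genes, AP-1 and ATF genes, phosphatases and feedback inhibitors or upstream regulators passed, and 6, 4, 7 and 1 of them had an unadjusted p under 0.05.

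Between the stages in epithelium, the heat shock genes were higher at E13.5 and no immediate early gene passed over all 6 libraries. Hspa1a went from 0.864 ± 0.327 FPKM (SD, n = 3) at E11.5 to 3.44 ± 0.547 FPKM at E13.5, a log2 fold change of 1.99 (SE 0.34, adjusted p = 0.022). Hspa1b went from 1.64 ± 0.616 to 7.64 ± 2.09 FPKM, a log2 fold change of 2.22 (SE 0.35, adjusted p = 0.0183). These 2 of 10 genes compare with 5.47% of 20467 genes that were higher, 3.01% that were lower and 8.48% that passed. Atf3 had 2.28 (SE 0.72, adjusted p = 0.0942). Summed skeletal muscle markers were 42.3 to 113.6 FPKM in the E11.5 libraries and 162.8 to 311.9 FPKM in the E13.5 ones. Summed neuron markers were 80.5 to 245.5 FPKM at E11.5 and 23.2 to 74.7 FPKM at E13.5. The part of these cells in the differences was not tested. The groups did not overlap for 3 genes, Atf3, Hspa1a and Hspa1b, and for 31.2% of all genes. The Hspa1a call was lost without E11.5 epithelium replicates 1 or 2 or E13.5 epithelium replicates 1 or 2 (adjusted p = 0.0563 to 0.0967), and the Hspa1b call without E11.5 epithelium replicates 1 or 2 or E13.5 epithelium replicate 1 (adjusted p = 0.0713 to 0.0803).

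For 6 of the 8 immediate early genes in epithelium, all but Atf3 and Ier2, the direction between the stages depended on E13.5 epithelium replicate 3. For these genes except Junb it also depended on the fit. With edgeR over all libraries, 7 of the 8 had positive log2 fold changes, 1.10 for Fos and 0.56 for Egr1 among them, and Ier2 a negative one of -0.62. Over the same libraries, limma on log2(FPKM + 0.5) turned Fos (-0.08), Jun (-0.10) and Egr1 (-0.45). A block on the replicate number turned Fos (-0.24), Fosb (-0.26), Jun (-0.16), Egr1 (-0.58) and Dusp1 (-0.01). None of these turned values had an adjusted p under 0.05. Junb and Atf3 stayed positive in both fits. Without E13.5 epithelium replicate 3, 7 genes were lower at E13.5 and passed, Fos at -1.39 (SE 0.15, adjusted p = 0.00237), Egr1 at -1.66 (SE 0.12, adjusted p = 0.000647), Ier2 at -1.69 (SE 0.19, adjusted p = 0.00269), Jun at -0.95, Fosb at -1.69, Junb at -0.65 and Dusp1 at -0.74, where 7.21% of 21346 genes were lower. Atf3 had 1.03 without it (SE 0.36, adjusted p = 0.101). Among the numbered libraries alone the same 7 genes were lower and passed, where 17.6% of 20725 genes were lower and 38.8% passed, and Atf3 was higher at 1.45 (SE 0.22, adjusted p = 0.00474). With the numbered libraries of a group averaged, 0 of the 10 genes and 0 of 20790 genes passed. Among the unnumbered libraries alone the level at E13.5 was above that at E11.5 for all 10 genes, from 1.70-fold for Ier2 to 7.23-fold for Hspa1b.

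In mesenchyme, too, Hspa1a and Hspa1b were higher at E13.5. Hspa1a went from 0.550 ± 0.190 FPKM (SD, n = 3) to 2.27 ± 0.630 FPKM, a log2 fold change of 2.02 (SE 0.31, adjusted p = 0.00111), and Hspa1b from 1.28 ± 0.350 to 3.004 ± 0.460 FPKM, a log2 fold change of 1.21 (SE 0.22, adjusted p = 0.00301). This comparison had by far the most changes in all, with 22.0% of 20271 genes higher, 17.0% lower and 39.0% passing, so that 2 of 10 is below the background share. Both calls held without each of the 6 libraries in turn. Marker genes of macrophages and leukocytes (9 of 10) and of skeletal muscle (10 of 12) were higher at E13.5 too, and their part in these differences was not tested. The groups did not overlap for 4 genes, Jun, Junb, Hspa1a and Hspa1b, and for 47.9% of all genes. Without E13.5 mesenchyme replicate 1, Egr1 was lower at -0.65 (adjusted p = 0.00104) and Ier2 at -1.31 (adjusted p = 0.000215), where 17.7% of genes were lower. Without E13.5 mesenchyme replicate 3 Fos at 1.78 (adjusted p = 0.0449), Jun at 0.93 (adjusted p = 0.0328) and Atf3 at 2.19 (adjusted p = 0.0438) were higher beside Hspa1a and Hspa1b, where 18.0% of genes were higher. In the numbered libraries 2 genes were higher and 3 lower, namely Fosb at -0.45, Egr1 at -0.64 and Ier2 at -1.40, where 46.7% of genes passed.

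**Figure D4:**
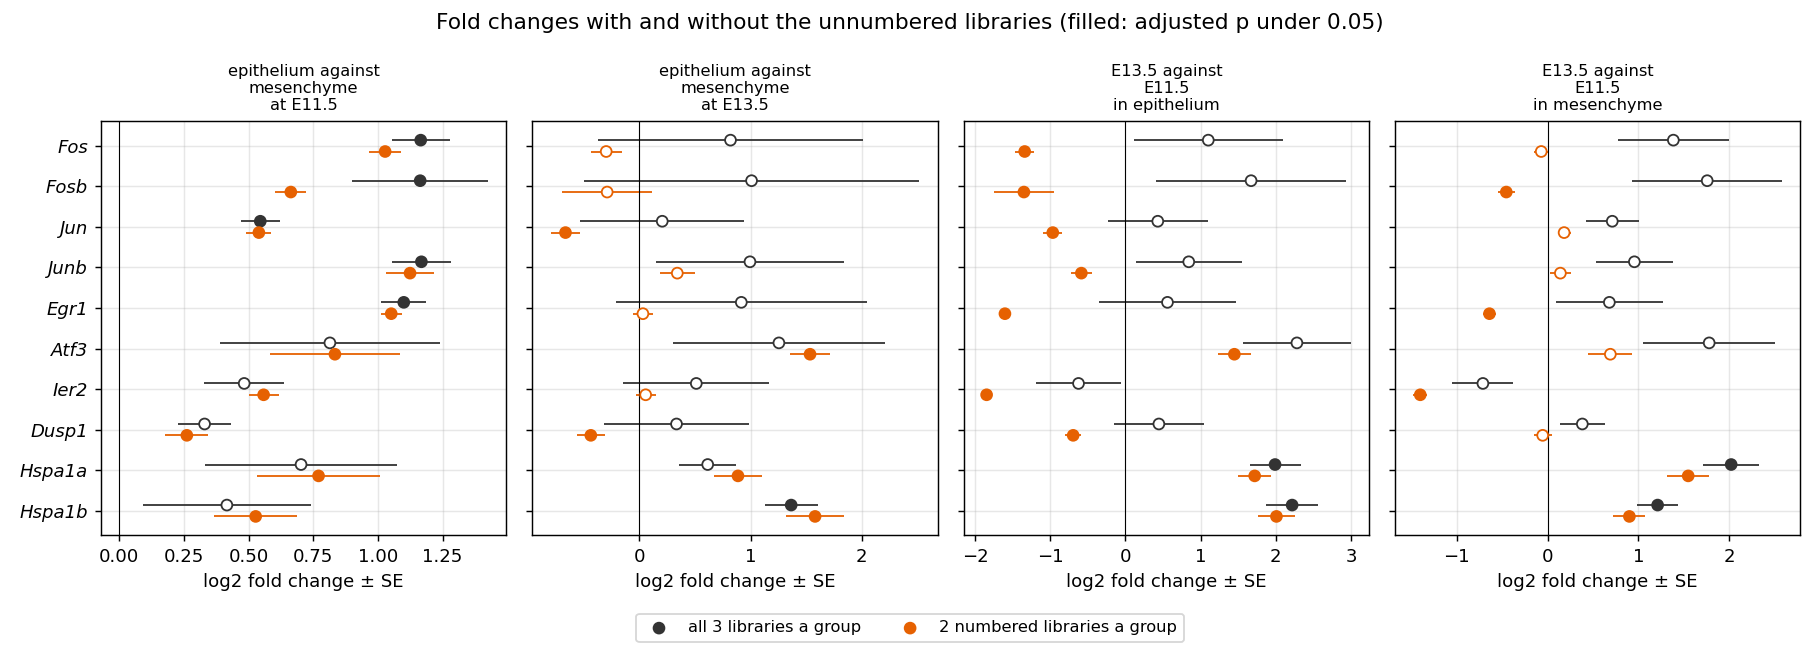
Log2 fold changes of the 10 genes with their standard errors in 4 comparisons, over all 3 libraries of a group (black) and over the 2 numbered libraries (orange), filled where the adjusted p was under 0.05. In epithelium between the stages, Fos lies at 1.10 over all libraries and at -1.34 over the numbered ones, whereas Hspa1b lies at 2.22 and 2.01.

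The wider stress and signalling lists also differed between the stages. In mesenchyme 22.0% of all genes were higher and 17.0% lower at E13.5, and in epithelium 5.47% and 3.01%, against which the counts of the lists stand. In mesenchyme, of 39 further heat shock genes 11 were higher and 21 lower at E13.5, with a median of -0.41 against 0.01 over all genes. Lower were the HSP90 cochaperone Fkbp4 at -0.87 (adjusted p = 5.37e-05), the HSP110 gene Hsph1 at -1.18 (adjusted p = 0.000101) and the cochaperone Stip1 at -0.63 (adjusted p = 0.00044), whereas Serpinh1, a collagen chaperone, was higher at 0.99 (adjusted p = 0.000474). In epithelium 1 was higher and 6 were lower of 38, with Hsph1 at -0.78 (adjusted p = 0.0132) and Stip1 at -0.50 (adjusted p = 0.0331). Of the further immediate early genes 18 of 42 were higher and 3 lower in mesenchyme, and 8 higher and 1 lower in epithelium. Gadd45b, a growth arrest gene, was higher in both, at 1.83 (adjusted p = 6.99e-05) and 1.55 (adjusted p = 0.0183). Fosl2, a Fos family gene with slower kinetics, was also higher in both, at 2.47 (adjusted p = 0.000425) in mesenchyme and 2.45 (adjusted p = 0.00105) in epithelium, and 5 and 2 of 14 further AP-1 and ATF genes were higher.

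Against the same shares of all genes, 8 of 17 phosphatases and feedback inhibitors were higher and 4 lower in mesenchyme, and 5 higher and 1 lower in epithelium. Dusp9 was lower at -2.26 (adjusted p = 4.22e-06) in mesenchyme, and Spry1, an inhibitor of FGF signalling, was higher in both, at 0.93 (adjusted p = 0.000474) and 1.01 (adjusted p = 0.00995). Of 19 upstream regulators 3 were higher and 2 lower in mesenchyme, with the p38 kinase gene Mapk14 at -0.33 (adjusted p = 0.0128), and 0 passed with edgeR in epithelium, where 3 had an unadjusted p under 0.05. Of 20 stress genes 7 were higher and 1 lower in mesenchyme, where 39.0% of all genes passed, with Nupr1 at 4.71 (adjusted p = 0.00139), and 1 was higher in epithelium, Vldlr at 1.45 (adjusted p = 0.0265).

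Whether epithelium and mesenchyme differed by another amount at E13.5 than at E11.5 was tested as an interaction over all 12 libraries, and with edgeR 0 of the 10 genes passed, where 0.204% of 22110 genes did. DESeq2 and limma passed 0 as well, and 1 gene had an unadjusted p under 0.05 with each tool. With edgeR this was Hspa1b at 0.97 (SE 0.43, adjusted p = 0.321). The values of the immediate early genes were between -0.32 and 0.46 with SEs of 0.72 to 1.67. Without E13.5 epithelium replicate 3, Fos at -2.81 (adjusted p = 0.0452), Jun at -1.70 (adjusted p = 0.0166) and Dusp1 at -1.16 (adjusted p = 0.0457) passed, where 9.21% of 23092 genes were lower. Among the numbered libraries alone, where 30.4% of genes passed, Hspa1b was higher at 1.08 and Fos, Jun, Junb, Egr1, Ier2 and Dusp1 were lower, from -1.30 for Fos to -0.47 for Ier2. The comparisons share libraries with each other, so that their values are not independent.

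Across the 12 libraries the immediate early genes moved together, as measured by the deviation of log2(FPKM + 0.5) from the group mean. The correlation of a gene with the mean of the other 9 was 0.996 for Fos and for Egr1, 0.988 for Junb, 0.973 for Jun, 0.970 for Fosb, 0.968 for Dusp1, 0.963 for Ier2 and 0.875 for Atf3, but 0.256 for Hspa1a and -0.02 for Hspa1b. Without the 2 E13.5 unnumbered libraries it ranged from -0.76 for Atf3 to 0.774 for Fos, so that the coherence rests on those 2. Among 7237 genes with a mean of at least 5 FPKM, 42 (0.58%) correlated above 0.9 with the mean of the 10 genes, and the median gene at -0.10. The 8 most alike were Zfp36 (0.994), Btg2 (0.994), Nr4a1 (0.982), Socs3 (0.969), Ccn1 (0.969), Zfp36l2 (0.965), Rai14 (0.964) and Arid5b (0.956). Zfp36l2, Rai14 and Arid5b moved alike in direction but by little, with ratios of the unnumbered library at E13.5 of 1.18 to 1.66. Without the E13.5 unnumbered libraries the correlations of the 8 were -0.62 to 0.577. These correlations describe 12 libraries that share groups and depth and carry no test.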

How the data were processed

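Poly(A) RNA of 12 libraries was sequenced. Per the submitters' processing notes and the methods of the study, the authors trimmed reads with Cutadapt and aligned them with HISAT2 2.0.4 to mm10. Genes were assembled and quantified with StringTie 1.3.4d. The notes also name edgeR, whereas the methods of the study name DESeq2 for differential expression. The table deposited by the authors holds FPKM values and estimated counts, already whole numbers, for each gene and library. The filters on genes and how embryos were divided among libraries are not given in the sources used here. How these steps divided reads between near-identical genes is not stated, and it bears on Hspa1a and Hspa1b.

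Groups were taken from the labels. Estimated counts were tested with edgeR 4.0.16 in R 4.3.3 (filterByExpr, TMM, quasi-likelihood test, Benjamini-Hochberg adjustment over all genes tested) in 4 comparisons of 3 against 3 libraries and in 1 interaction over all 12, with a threshold of 0.05. The filter was applied per comparison, so that the number tested differs. The SE of a log2 fold change was its size over the square root of the F statistic. DESeq2 1.42.0, limma 3.58.1 on log2(FPKM + 0.5), other pseudocounts, RLE size factors, no filter, a replicate block, library codes and leaving out each library were alternatives, and fits on the numbered libraries alone or averaged were added after seeing the data. The tests were also run on simulated data. Differences between libraries were described with Python 3.11.15 and pandas 2.3.3.

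The 10 genes and all lists were chosen with earlier results of these data known. Named besides them were the 8 genes most alike in deviation from the group mean, up to 4 genes per list that passed by smallest p, and genes said to be chosen after their values were seen. A withheld item is not reported here. Same-numbered libraries deviated from their group means with correlations of -0.13 to 0.109, and libraries of the same code with -0.06 to 0.171 (0.0529, 0.0845 and 0.171 between the E11.5 tissues), so neither was taken to pair them. Totals of 70134554 to 79349382 estimated counts limit the precision of genes under 1 FPKM most.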

Additional observations from a re-analysis of the deposited data

How the results depend on the processing

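The number of the 10 genes that passed depended on the libraries and the fit. At E11.5 between the tissues, 5 passed, and 8 with the library code as a covariate, 0 with all 12 libraries in 1 fit, 10 with the numbered libraries only, 3 with these averaged, and 4 to 6 without 1 library. At E13.5 between the tissues, 1 passed, and 0 with limma at each of the pseudocounts 0.1, 0.5 and 1, 0 with no filter on low counts, 0 with the numbered libraries averaged, 5 with the numbered libraries only, and 0 to 1 without 1 library. Between the stages in epithelium, 2 passed, and 10 with the numbered libraries only, 0 with these averaged and 0 to 9 without 1 library. Between the stages in mesenchyme, 2 passed, and 4 with the code covariate, 5 with the numbered libraries only and 2 to 5 without 1 library. Of the interaction, 0 passed, and 7 with the numbered libraries only and 0 to 3 without 1 library. Leaving out or averaging libraries changes their number and the estimated spread at once, and the cause of these changes was not tested.

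With the replicate number as a block, 4 genes passed at E11.5 between the tissues, 0 at E13.5, 0 between the stages in epithelium, 3 in mesenchyme and 0 in the interaction. With the library code as the replicate block, the numbers were 7, 0, 0, 3 and 0. The numbers pair replicates across tissues differently from the codes. Over all genes, the block on the replicate number moved the calls between the stages in epithelium from 1120 higher and 616 lower to 46 and 8.

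Directions turned with the numbered libraries only, at an adjusted p under 0.05, for Jun (-0.67) and Dusp1 (-0.44) between the tissues at E13.5, for Fos (-1.34), Fosb (-1.35), Jun (-0.97), Junb (-0.59), Egr1 (-1.60) and Dusp1 (-0.69) between the stages in epithelium, for Fosb (-0.45) and Egr1 (-0.64) in mesenchyme, and for Ier2 (-0.47) and Dusp1 (-0.67) in the interaction. Without passing, Fos (-0.30) and Fosb (-0.29) turned between the tissues at E13.5 and Fos (-0.07) and Dusp1 (-0.05) in mesenchyme. Leaving out 1 library at a time, the change between the stages in epithelium ranged from -1.39 to 1.57 for Fos, -1.69 to 2.18 for Fosb, -0.95 to 0.79 for Jun, -0.65 to 1.25 for Junb, -1.66 to 1.02 for Egr1 and -0.74 to 0.77 for Dusp1, each negative only without E13.5 epithelium replicate 3. In the interaction Dusp1 ranged from -1.16, also without that library, to 0.43. In mesenchyme Egr1 ranged from -0.65, without E13.5 mesenchyme replicate 1, to 1.07. DESeq2 called 1477 genes higher and 744 lower between the tissues at E11.5, against 952 and 328 with edgeR, and 1478 and 1054 at E13.5, against 334 and 42.

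Over genes of at least 5 FPKM, the median spread in E11.5 epithelium was 0.116 for the 8 of the 10 genes that remained and 0.157 for all genes. With the numbered libraries only the median of the 10 was 0.0376 in epithelium and 0.128 in mesenchyme at the earlier stage, then 0.231 and 0.0605 at the later one. Of the alternative values of single genes, 751 kept their direction and side of the threshold, 102 changed sign with no call on either side, 20 changed sign with one, and 34 gained and 43 lost a call in the same direction.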
